A study of Mus musculus with 4 samples.

Results

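The cytosolic ribosome carries a set of ribosomal proteins, named Rpl for the large subunit and Rps for the small subunit, and their mRNAs are among the most abundant of a growing cell. The members described here were the protein-coding transcripts in the deposited transcript table whose gene symbol is that of a cytosolic ribosomal protein or of one of its paralogs. The rule used symbols only and kept 179 transcripts of 83 genes, out of 34200 transcripts of 21945 genes. Of the 83 genes, 51 encode large subunit proteins (106 transcripts) and 32 encode small subunit proteins (73 transcripts), and 6 of the 83 are paralogs whose symbol ends in l, l1 or al (13 transcripts).

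The RNA came from NIH/3T3 cells, an immortalised mouse fibroblast line. The knockdown (KD) group received a pair of Setd2-specific siRNAs, and the wild type (WT) group received Scrambled siRNA, both at 10 nM with the lipid reagent Lipofectamine 3000, and RNA was taken after 48 h. There were 2 libraries of polyA RNA in each group, and nothing in the labels says that they came from cells grown apart, so the p-values measure only the spread between these libraries. Setd2 encodes the methyltransferase that places H3K36me3, a histone mark of transcribed gene bodies, and the comparison asks how the transcriptome of cells with less of it differs. Setd2 is lowered and not deleted in these cells, and untransfected cells were not analysed here.

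Each value is a normalised estimated count from Sleuth, and the file gives the mean of the 4 libraries and the fitted KD-minus-WT effect on the natural-log scale. The level of a transcript in WT or KD was computed from that mean and effect, and values of single libraries were not analysed here. The depth of each library is therefore unknown, and error is given as the standard error (SE) of the log2(fold change) or as the standard deviation (SD) within groups that the fit leaves over 2 degrees of freedom. A transcript was called where the deposited q-value of the likelihood ratio test (LRT) across all transcripts was under 0.05. The Setd2 transcript had a level of 3680 in WT and 923 in KD, a log2(fold change) of -1.99 (SE 0.094, q = 0.0103 by Sleuth's LRT). Fibroblast markers were present, with levels from 3112 to 332259 over 9 genes, of which Fn1 and Pdgfrb had a transcript called higher and Col1a1, Col1a2 and Col3a1 one called lower, by 0.68, 0.68 and 0.92 on the log2 scale. Of the other markers, Epcam and Krt5 were not in the table and the remaining epithelial, blood and endothelial markers had levels of at most 347.

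Ribosomal proteins are made in matched amounts, and surplus copies that do not enter a subunit are degraded. Most of their mRNAs begin with a cytosine followed by a run of pyrimidines, the 5′ terminal oligopyrimidine (TOP) motif, through which the mTORC1 pathway and the RNA-binding protein LARP1 set their translation and stability. Some members have paralogs that can take their place in the ribosome in certain tissues, and many have left processed pseudogenes across the genome, which makes short reads from them hard to place.

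The start regions are shown because the TOP motif is the feature these mRNAs are best known for, and the genes were taken from those the results below turn on. A start was counted as TOP-like where a C followed by at least 4 C or T letters began between 5 bases before and 5 bases after an annotated start in RefSeq (GRCm38.p6, the build the labels name). Each line gives 10 bases before the start and 20 from it on the gene's own strand, with the pyrimidine run in capitals. The windows lie at chr7:4792955-4792984 for Rpl28 (+ strand), chr14:18270967-18270996 for Rpl15 (- strand), chr7:45128726-45128755 for Rpl13a (- strand), chr4:86857348-86857377 for Rps6 (- strand), chr3:28805498-28805527 for Rpl22l1 (+ strand), chr4:152325716-152325745 for Rpl22 (+ strand), chr17:46782637-46782666 for Rpl7l1 (- strand) and chr12:69184048-69184077 for Rpl36al (- strand).
Rpl28: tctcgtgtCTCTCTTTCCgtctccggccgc
Rpl15: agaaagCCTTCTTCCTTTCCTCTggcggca
Rpl13a: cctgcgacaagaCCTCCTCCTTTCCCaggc
Rps6: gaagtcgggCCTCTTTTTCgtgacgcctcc
Rpl22l1: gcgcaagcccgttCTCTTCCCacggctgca
Rpl22: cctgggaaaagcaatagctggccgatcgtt
Rpl7l1: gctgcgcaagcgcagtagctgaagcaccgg
Rpl36al: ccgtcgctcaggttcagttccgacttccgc
The run was 17 bases long in Rpl15, 14 in Rpl13a, 10 in Rpl28 and in Rps6, and 8 in Rpl22l1. None of the 5 runs began at the first base of the RefSeq RNA: those of Rpl13a and Rpl22l1 began at positions 3 and 4 of it, and the others before it. No run was found in either of the RefSeq starts of Rpl22, of which the one nearer to the tested transcript is printed, nor in those of Rpl7l1 and Rpl36al.

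RefSeq had a start for 63 of the 83 genes, and 29 of these 63 (46%) held the run, against 2983 of the 12868 genes of the whole table with a start in RefSeq (23.2%). The sequence TATAAA from 35 to 20 bases before the start was found in 1 of the 63 (1.59%), Rpl22l1, and in 1.48% of the 12868 genes. It is shown in capitals in the window chr3:28805469-28805497 (+ strand) and begins 28 bases before the RefSeq start. Rpl22l1 was also the only gene with a call lower in KD, and a link between motif and call was not tested.
Rpl22l1, upstream: gcacgtttttaTATAAAagcgtgcgtgcg
The tested Rpl22l1 transcripts are annotated to start further upstream, at 28805436 and 28805469, so TATAAA lies downstream of both of these starts. Only 22 of the 63 most abundant transcripts had their annotated start within 5 bases of a RefSeq start, with a median distance of 22 bases, so the share with a TOP-like start depends on which start is taken. The 29 genes with the run had a median log2(fold change) of 0.25 and the 34 without it 0.19. A transcript was called higher for 15 of the 29 and for 7 of the 34, where 10.1% of all 21945 genes had one. The middle 80% of values ran from -0.02 to 0.44 with the run and from -0.08 to 0.37 without it, so the groups overlapped over most of their range.

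Most ribosomal protein genes had a slightly higher level in KD. Summed over its transcripts, the median gene was 0.23 higher on the log2 scale, which is 17.4%, and 70 of 83 genes had a positive and 13 a negative log2(fold change). The median over all 21945 genes was -0.03. Of the 179 transcripts, 27 were called higher, which is 15.1%, against 7.26% of all transcripts, and 2 were called lower, which is 1.12%, against 5.21% of all transcripts. Both transcripts called lower belong to Rpl22l1. By Sleuth's Wald test 46 member transcripts were called higher and 5 lower (10.4% and 7.8% of all transcripts), and by a limma moderated test 15 higher and 2 lower (5.44% and 4.24% of all). The LRT calls fell on 26 genes with a transcript called higher, where 10.1% of all genes had one, and 1 gene with a transcript called lower, where 7.43% of all genes had one. The deposited gene table, whose q-values carry no direction, called 33 of the 83 genes and 24% of all genes.

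**Figure D1:**
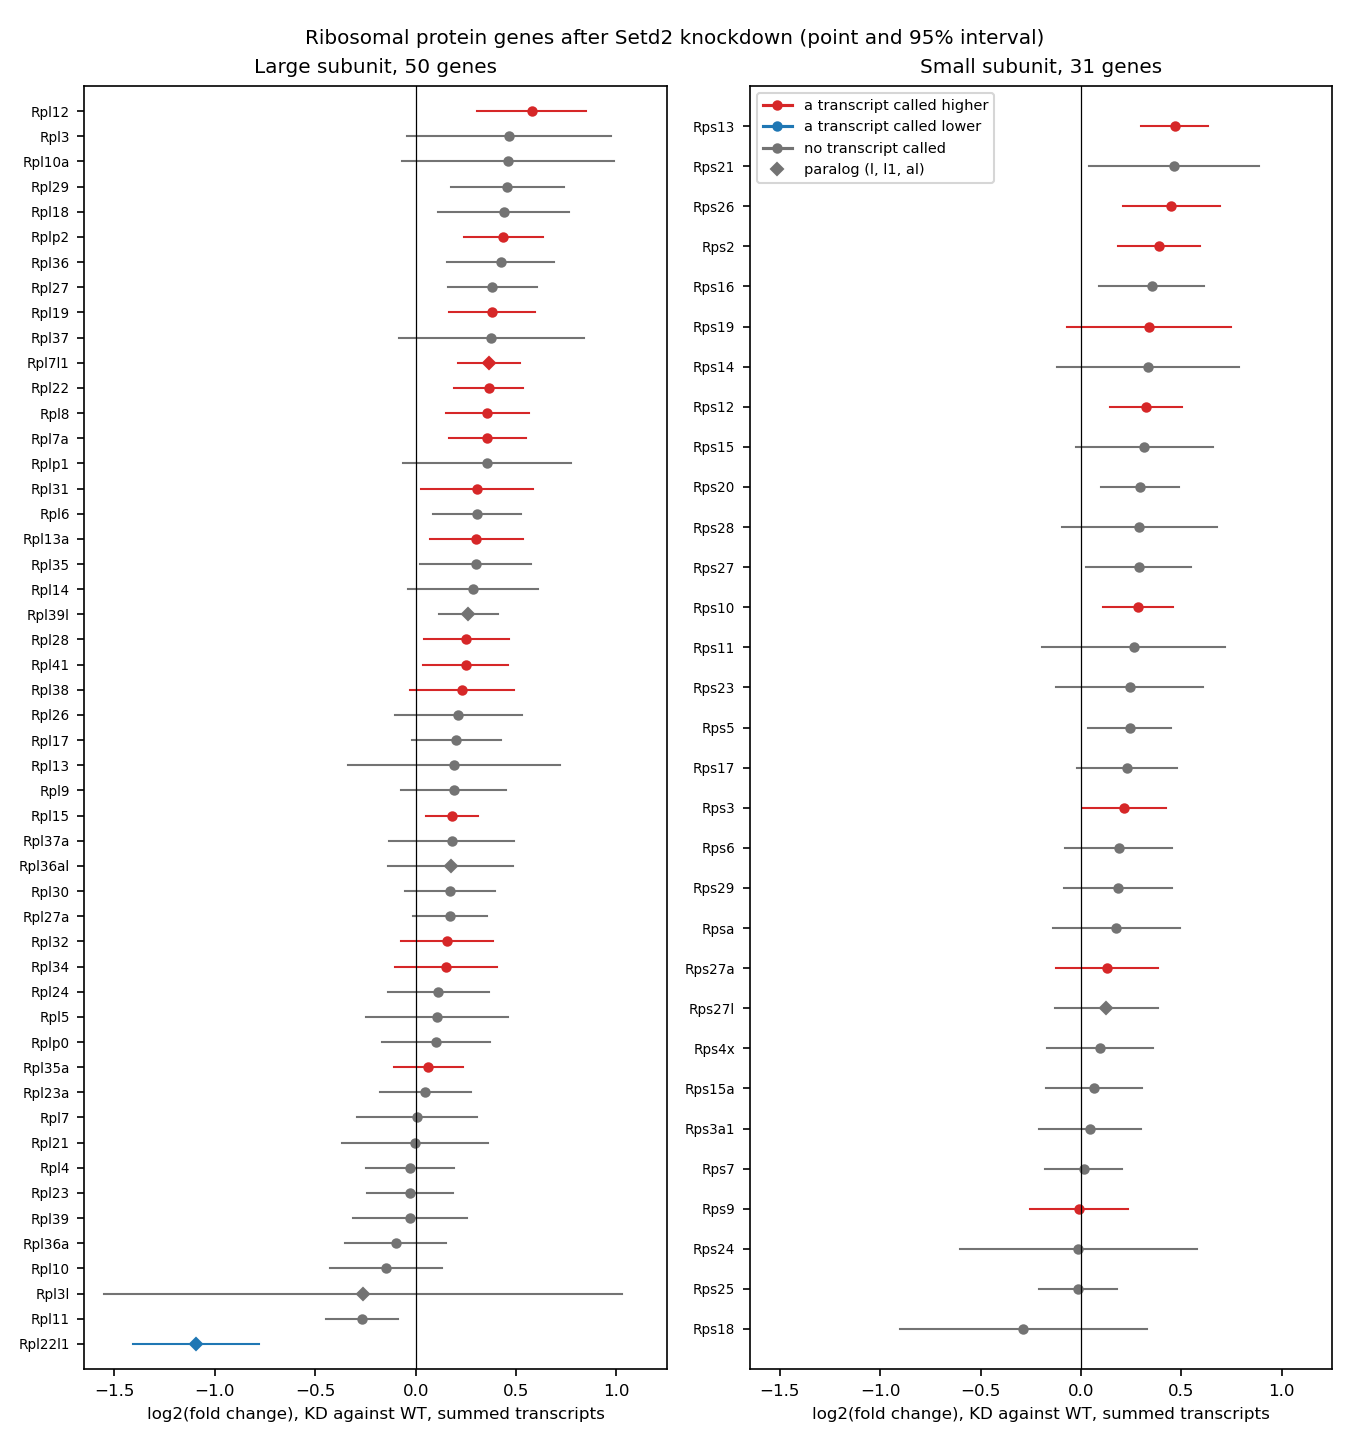
Log2(fold change) of the summed level of each ribosomal protein gene, KD against WT, with 95% intervals from the fitted standard errors, for 50 large subunit genes (left) and 31 small subunit genes (right). Points right of 0 are higher in KD, red and blue mark genes with a transcript called higher or lower, and diamonds are paralogs. All genes drawn but Rpl22l1 lie between -0.29 and 0.58.

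Level has to be read beside these shares, because in these data abundant transcripts of all kinds were called higher more often than rare ones. Among transcripts with a mean of at least 5000 counts, 27.4% were called higher and 9.16% lower, while of the 101 member transcripts in that range 12.9% were called higher and 0.99% lower. In the range from 3000 to 10000 counts the median log2(fold change) was 0.45 for 20 member transcripts and 0.12 for the 2920 other transcripts. From 10000 to 30000 counts it was 0.18 for 22 members and 0.20 for 608 others, and above 30000 counts it was 0.22 for 71 members and 0.16 for 161 others. Above 30000 counts, where the most abundant members lie, 85.9% of members and 68.9% of the others had a positive value, but 9.86% of members and 20.5% of the others were called higher. The SD within groups had a median of 0.13 for members and 0.10 for the others there, and from 3000 to 10000 counts it was 0.15 and 0.08.

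**Figure D2:**
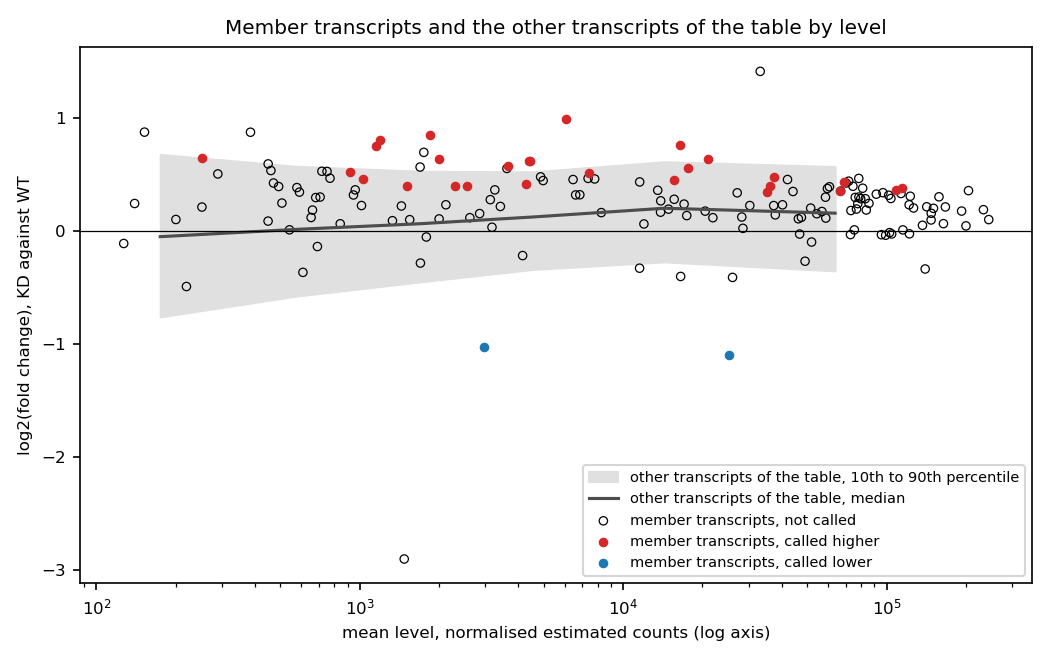
Log2(fold change) against mean level (log axis, normalised estimated counts) for the member transcripts with a mean of at least 100 counts. The grey band spans the 10th to 90th percentile of the other transcripts of the table in 6 ranges of level, and the line is their median, which goes from -0.05 in the lowest range to 0.20 between 10000 and 30000 counts.

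The direction of the family depended on the scale. Actb, the cytoplasmic actin gene often used as a reference, had a level of 82423 in WT and 113066 in KD, a log2(fold change) of 0.46 (SE 0.105, q = 0.031 by Sleuth's LRT). With every value divided by Actb the median of the 83 genes was -0.22, and with the median of transcripts of at least 100 counts set to 0 it was 0.18. Each of these scalings shifts every transcript by the same amount, so the members' difference from the other transcripts stays the same. On the deposited scale the members' summed level was 6746937 in WT and 7722458 in KD, or 10.5% and 11.4% of all counts in the table.

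The large and small subunits moved by similar amounts. The median log2(fold change) was 0.21 over 51 large subunit genes and 0.24 over 32 small subunit genes, and large subunit transcripts took 55.8% of the members' counts in WT and 56.1% in KD. A transcript was called higher for 17 large and 9 small subunit genes, where 10.1% of all genes had one. Once divided by Actb the medians were -0.24 and -0.21.

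The most abundant transcript was called higher for 7 of the 51 large subunit genes and for 4 of the 32 small subunit genes. The share was 7.26% of all transcripts and 27.4% of those with a mean of at least 5000 counts. Rpl8, a core protein near the peptidyl transferase centre, had a level of 95854 in WT and 123317 in KD, a log2(fold change) of 0.36 (SE 0.109, q = 0.0435 by Sleuth's LRT). Rplp2, an acidic protein of the stalk that recruits translation factors, went from 59461 to 80439, or 0.44 (SE 0.106, q = 0.0386, Sleuth). Its stalk partners Rplp0 and Rplp1 had values of 0.10 (SE 0.137) and 0.36 (SE 0.214) and were not called. Rpl19 rose by 0.38 (SE 0.110, q = 0.0484, Sleuth) and Rpl7a by 0.36 (SE 0.098, q = 0.0499, Sleuth), both close to the threshold. Only a small share of the 31-base words of Rpl7a (12.9%) occurs in no other annotated gene, whereas 90% of those of Rpl8 do.

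Most genes whose main transcript was not called still had a positive value. Over both subunits these 71 main transcripts had a median of 0.19, with 58 positive and 13 negative. Some large subunit genes without a call lay near 0. Rpl4 had a value of -0.03 (SE 0.112), Rpl7 0.01 (SE 0.152) and Rpl23 a summed value of -0.03 (95% interval -0.24 to 0.18). Rpl11, which with Rpl5 and the 5S rRNA can bind and inhibit the p53 ligase Mdm2, had a summed value of -0.27 (95% interval -0.45 to -0.09), with no transcript called and a q-value of 0.0726 for its main one. Rpl5 itself had 0.11 (95% interval -0.25 to 0.46). Of the 83 genes, the 95% interval of the summed value lay above 0 for 32 and below 0 for 2, Rpl11 and Rpl22l1.

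In the small subunit, the main transcript of Rps13 had a level of 31605 in WT and 44078 in KD, a log2(fold change) of 0.48 (SE 0.087, q = 0.0168 by Sleuth's LRT). With 3 other annotated genes that share its sequence added, among them the processed pseudogene Rps13-ps1, the summed value of Rps13 was 0.16 (95% interval -0.04 to 0.36). Rps3, a protein of the mRNA entry channel, had 1 called transcript with 27.6% of its counts, at 0.34 (SE 0.085, q = 0.0279, Sleuth). The most abundant small subunit genes were not called. Rps6, the substrate of S6 kinase, went from 218617 to 248886, or 0.19 (SE 0.135), Rps3a1 had 0.04 (SE 0.129) and Rpsa, the laminin receptor protein, had 0.17 (SE 0.161) in its main transcript. Rps24, the gene with the highest level per kilobase, had a summed value of -0.01 (95% interval -0.60 to 0.58), so that neither a rise nor a fall of that size was detectable.

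Core genes were not at 1 level. Per kilobase of transcript, the summed WT level of 76 core genes had a median of 93105, and the 90th percentile was 10.4 times the 10th (Rps14, whose main transcript was not matched, has no length). The lowest core genes were Rpl5 (944 per kilobase), Rps2 (1231), Rpl12 (2416) and Rpl3 (4639). Ribosomal proteins are present in the ribosome at about equal numbers, so the table was searched for other annotated genes at least 50% of whose 31-base words also occur in a member.

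There were 196 such transcripts from 193 genes, most of them processed pseudogenes, and 64 of the 83 members had at least 1. Together they held 1561650 counts in WT, 23.1% of the members' own level. The copies held more counts than the member for Rpl3, Rpl5, Rpl10, Rpl12, Rpl29, Rps2, Rps12, Rps18 and Rps26. Rps12 had 4965 counts in WT, and Rps12-ps3, all of whose words occur in Rps12, had 240059. For Rpl12 the figures were 3000 and, in Gm10275, 174975; for Rpl5 they were 1930 and, in Gm15500, 150971; and for Rpl3 they were 6268 and, in Rpl3-ps1, 97708. Rps2 had 1344 counts, Rps2-ps10 had 65948 and Rps2-ps13 had 43134. Which of these reads came from the gene and which from the copy cannot be told apart from the deposited values.

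**Figure D3:**
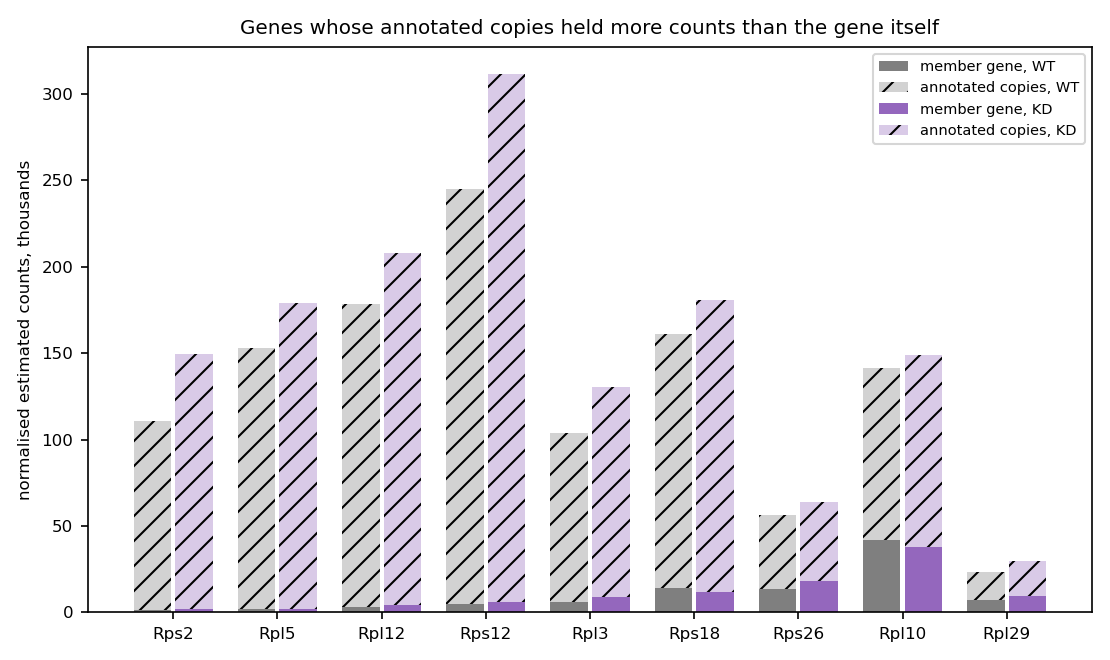
Normalised estimated counts, in units of 1000, in WT (grey) and KD (purple) for 9 ribosomal protein genes whose annotated copies in the table held more counts than the gene itself, with the gene solid and its copies hatched on top. The gene's share in WT ran from 1.22% for Rps2 to 30.3% for Rpl29.

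Adding the copies changed single genes more than the family. The median log2(fold change) over the 83 genes was 0.21 with the copies, with 72 positive and 11 negative. It was 0.21 over the large and 0.20 over the small subunit. Rpl12, which had the largest summed rise of the members on its own (0.58, 95% interval 0.31 to 0.85), had 0.22 with its copies (95% interval -0.02 to 0.47). Rps13 went from 0.47 to 0.16 (95% interval -0.04 to 0.36) with its 3 copies, of which Rps13-ps1 had -0.31 (SE 0.223). Rps26 went from 0.45 to 0.18 (95% interval 0.04 to 0.33). Rps18 was -0.29 alone and 0.17 with its copies (95% interval -0.25 to 0.59). For Rps2 the value held at 0.39 alone and 0.43 with the copies (95% interval 0.28 to 0.58). Of the 196 copy transcripts, 5 were called higher by Sleuth's LRT (Rpl31-ps8, Rpl37rt, Gm5619, Gm13864 and Rps2-ps13) and 0 lower. That is 2.55% and 0%, against 7.26% and 5.21% of all transcripts. The copies had a median level of 19.2 counts and a median SE of 0.70, against 155 counts and 0.31 over all transcripts. Most copies were thus too low and too variable for a call in either direction to be likely. Of the 66 copies with a negative value 2 had an unadjusted p under 0.05 by the LRT, as had 11615 of all 34200 transcripts in either direction. Neither Sleuth's Wald test nor limma called any of the copies lower. Rps2-ps13 had 0.50 (SE 0.091, q = 0.0161, Sleuth's LRT) and Rpl31-ps8 had 0.28 (SE 0.081, q = 0.0375, Sleuth). These standard errors treat transcripts as independent, although reads shared between a gene and a copy move counts from one to the other.

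Rpl22l1 was the member that changed most among those called, and it fell. It is the paralog of Rpl22, a large subunit protein that also binds RNA outside the ribosome, and the Rpl22 protein is known to lower Rpl22l1 mRNA in mouse cells. Its main transcript had a level of 37024 in WT and 17252 in KD, a log2(fold change) of -1.10 (SE 0.179, q = 0.0185 by Sleuth's LRT). Its second transcript went from 4229 to 2080, or -1.02 (SE 0.139, q = 0.0148, Sleuth). The main transcript of Rpl22 went from 31442 to 41318, or 0.39 (SE 0.086, q = 0.0261, Sleuth). Summed over transcripts, Rpl22l1 moved 1.46 below Rpl22 on the log2 scale (95% interval of the difference -1.82 to -1.10). Per kilobase, Rpl22l1 stood at 111% of Rpl22 in WT and at 39.8% in KD. Whether the change in Rpl22 bears on that in Rpl22l1 was not tested. Divided by Actb, the main transcript of Rpl22 was at -0.06 and that of Rpl22l1 at -1.56.

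Rpl7l1, a nucleolar paralog of Rpl7 with a part in ribosome assembly, was the other paralog with a call. Its main transcript went from 6228 to 8854, or 0.51 (SE 0.101, q = 0.0264, Sleuth's LRT), whereas its other transcript, with 33.5% of the gene's counts in WT, had 0.03 (SE 0.117). The summed value was 0.36 above that of Rpl7 (95% interval 0.02 to 0.69). Rpl7l1 stood at 4.84% of Rpl7 per kilobase in WT and at 5.88% in KD.

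The remaining paralogs were not called, and their differences from the core partner had intervals that included 0. Rpl39l, known for its level in male germ cells, had 0.28 in its main transcript (SE 0.078, q = 0.0512), just outside the threshold. It lay 0.29 above Rpl39 when summed (95% interval -0.03 to 0.61). Rpl36al lay 0.27 above Rpl36a (95% interval -0.13 to 0.67), and Rps27l, a p53 target, lay 0.16 below Rps27 (95% interval of paralog minus partner -0.53 to 0.21). Rpl3l, the striated muscle paralog of Rpl3, was barely present at 34.5 counts in WT and 28.6 in KD, and its interval against Rpl3 ran from -2.11 to 0.66. In WT the level per kilobase was 33.3% of the partner for Rpl36al, 26.3% for Rpl39l, 12.3% for Rps27l and 0.694% for Rpl3l. The 6 pairs carry no p-values, since they were chosen with earlier results known, and the 6 paralogs had a median of 0.15 against 0.24 for the 77 core genes. The order turned after centring on GC content, with 0.19 for the main transcripts of the paralogs and 0.16 for those of the core genes.

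**Figure D4:**
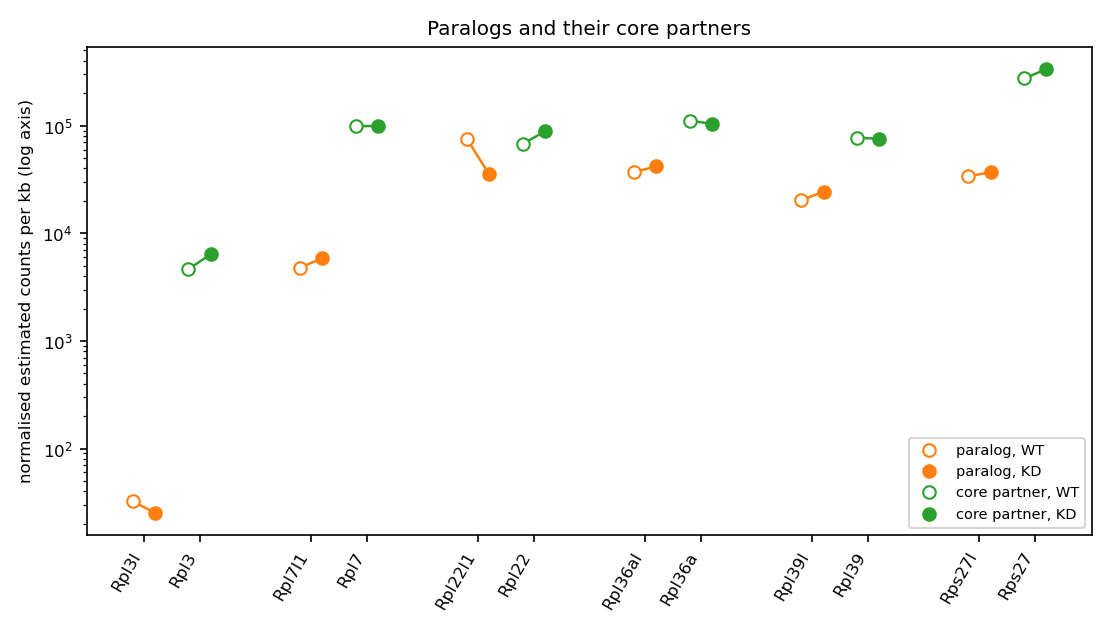
Summed level per kilobase (log axis) of each paralog and its core partner, with WT as open and KD as filled circles. Rpl22l1 goes from above Rpl22 in WT to below it in KD, and the other 5 paralogs stay under their partners.

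Several genes had a minor transcript that was called while the main one was not. Of the 83 genes, 49 had more than 1 transcript in the table, and 19 of these had transcripts of both signs. Among the 83 main transcripts 11 were called higher and 1 lower, and among the 96 others 16 were called higher and 1 lower, at median levels of 74562 and 1385. The shares were 7.26% higher and 5.21% lower over all transcripts, and 27.4% and 9.16% over those with a mean of at least 5000 counts. The 16 minor transcripts called higher held between 0.618% and 27.6% of their gene's WT counts, and for 1 of them, that of Rps12, the main transcript was called too. All 16 were annotated to start over 50 bases from the main transcript's start. Among the 63 minor transcripts with such a start 25.4% were called higher, and among the 31 with a start within 50 bases 0 were, at median levels of 843 and 2966. Of all transcripts from 300 to 1000 counts 7.34% were called higher, and of those from 1000 to 3000 counts 16.3%. By Sleuth's Wald test the counts for these far and near starts were 23 and 3 (10.4% of all transcripts), and by limma 10 and 0 (5.44% of all). At an unadjusted p under 0.05 by the LRT, in either direction, they were 32 and 10, where 11615 of all 34200 transcripts passed. Since these transcripts were singled out by their calls, that they rose more than the main transcript is a description.

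Large rises of this kind were seen in Rps10, Rpl28 and Rpl31. The Rps10 transcript ENSMUST00000178774.2 went from 4312 to 8583, or 0.99 (SE 0.264, q = 0.0463, Sleuth's LRT), but only 3.21% of its 31-base words occur in no other gene and none are its own among the tested transcripts, so its value is uncertain. The Rpl28 transcript ENSMUST00000078432.4 went from 1376 to 2478, or 0.85 (SE 0.160, q = 0.0238, Sleuth), against 0.22 for the main transcript, a difference of 0.63 (95% interval 0.24 to 1.01). It spans an intron of the main transcript. The Rpl31 transcript ENSMUST00000179954.7, which also spans one, went from 905 to 1583, or 0.81 (SE 0.118, q = 0.0148, Sleuth). The main Rpl31 transcript had 0.35, and the difference of 0.46 had a 95% interval from -0.02 to 0.94. A minor transcript of Rps12 had 0.75 (SE 0.114, q = 0.0148, Sleuth) at a level of 892 in WT. Minor transcripts of Rpl35a (0.65), Rps27a (0.64), Rpl34 (0.64), Rps19 (0.62) and Rpl15 (0.61) were called higher too.

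Rps27a encodes ubiquitin fused to a small subunit protein. Its called transcript went from 16781 to 26135 and from 9.45% to 13.5% of the gene's counts, and rose 0.58 more than the main one (95% interval 0.21 to 0.94). The Rpl15 transcript rose 0.49 more than the main one (95% interval 0.25 to 0.74). Of 16 minor transcripts that span an intron of the main one, 6 were called higher (37.5%), and of 78 that span none, 10 were (12.8%), at median levels of 1643 and 1403. The share called higher was 7.26% of all transcripts and 16.3% of those with a mean from 1000 to 3000 counts. With only 16 spanning transcripts, the difference was not tested. The other direction was seen in Rps13, whose minor transcript spanning an intron had -0.37 (SE 0.145) and lay 0.85 below the main one (95% interval of the difference -1.18 to -0.51), and in a minor Rpl9 transcript spanning 5 introns of the main one, 0.42 below it (95% interval -0.73 to -0.10). Neither was called. Over all 96 minor transcripts the 95% interval of the difference from the main one lay above 0 for 12 and below 0 for 5.

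**Figure D5:**
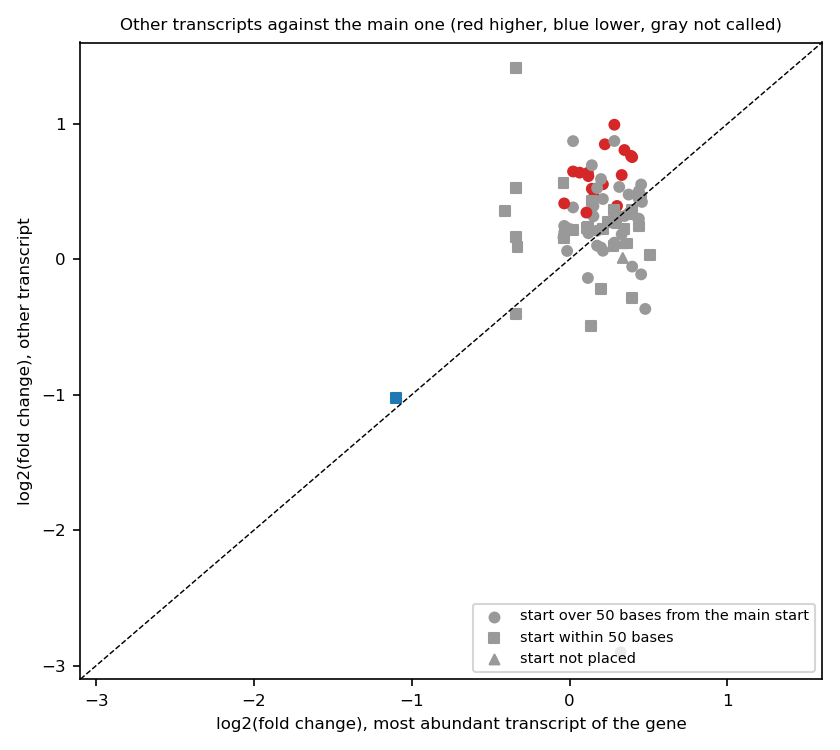
Log2(fold change) of the 84 minor transcripts with a mean of at least 100 counts against that of the most abundant transcript of the same gene, with the dashed line where both are equal. Circles are transcripts that start over 50 bases from the main start, and the red points, called higher, are all circles above the line.

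Of the member genes, 29 hold 1 or more annotated snoRNA genes, which are released from the introns of their host. Their median log2(fold change) was 0.26, with a transcript called higher for 10, and that of the 54 other genes was 0.23, with 16. Over all genes 10.1% had such a call. Member transcripts were short and somewhat rich in G and C, with a median length of 711 bases and a GC content of 52.7%, against 2393 bases and 49.2% over all transcripts.

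The genes around the ribosome were described by lists chosen with earlier results of these data known. Of the proteins that join the ribosome but carry other names, Fau, a ubiquitin-like fusion that yields the small subunit protein eS30, had all 3 of its called transcripts higher, with the main one going from 42251 to 62308, or 0.56 (SE 0.112, q = 0.0265, Sleuth's LRT). Rack1, a scaffold protein of the small subunit, had no call. Of 19 other TOP mRNAs, 3 genes had a transcript called higher and 3 called lower, with a median of 0.06, below that of the ribosomal proteins. Over all genes 10.1% had a transcript called higher and 7.43% one called lower. Eef1d (main called transcript 0.42), Eif3f (0.54) and Eif3h (0.31) rose, while Eif3e (-0.60) fell. In Eif4a2 and Npm1 only the transcript second in level fell (-0.40 and -0.35). Their most abundant transcripts, at -0.11 and -0.14, were not called, and another Npm1 transcript had 0.61 (SE 0.240) and was not called. Eef1a1, Eef2 and Pabpc1 had no call.

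Of 16 genes of the mTORC1 and LARP1 axis, 8 had a transcript called higher and 1 called lower, with a median of 0.33. The shares over all genes were 10.1% and 7.43%. Rptor, the substrate-binding subunit of mTORC1, went from 2284 to 4560, or 1.00 (SE 0.084, q = 0.0103, Sleuth's LRT). Akt1s1, an inhibitor of mTORC1, had 4 transcripts called higher, by 1.05 to 1.56, and Deptor, another inhibitor, fell by 0.64 (SE 0.146, q = 0.0226, Sleuth). Larp1 rose by 0.46 (SE 0.077, q = 0.0167, Sleuth), Eif4ebp1, which represses cap-dependent translation by binding eIF4E, by 0.92 (SE 0.121, q = 0.0143, Sleuth) and Eif4g1, the scaffold that also binds eIF4E, by 0.92 in its main called transcript (SE 0.120, q = 0.0142, Sleuth). Eif4ebp2, Eif4e and Mlst8 also had a transcript called higher.

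Of 11 chaperones and import receptors of ribosomal proteins, 5 had a transcript called higher and 0 called lower by Sleuth's LRT, with a median of 0.21. Of their 5 transcripts with a negative value 1 had an unadjusted p under 0.05 by the LRT, and limma called 0 lower. Over all 34200 transcripts 11615 had such a p in either direction. Aamp rose by 0.44 (SE 0.081, q = 0.022, Sleuth), Tnpo1 by 0.34 in its main called transcript (SE 0.085, q = 0.0276, Sleuth) and Ipo9 by 0.21 (SE 0.076, q = 0.0482, Sleuth). The Grwd1 transcript was called with a wide error (1.82, SE 0.50), and the Heatr3 transcript called was listed at 0 in WT and 44.2 in KD. Of 8 surveillance genes, 6 had a transcript called higher and 1 called lower. The main transcript of Mdm2 rose by 0.35 (SE 0.085, q = 0.039, Sleuth) and a minor transcript of Trp53 by 0.65 (SE 0.124, q = 0.0228, Sleuth), whereas the main Trp53 transcript had 0.35 (SE 0.301) and was not called. Cdkn1a, a p53 target, had its main transcript higher by 0.40 (SE 0.102, q = 0.0411, Sleuth) and a minor one lower by 0.69 (SE 0.160, q = 0.0266, Sleuth). Over all genes 10.1% had a transcript called higher and 7.43% one called lower. Counted by transcript instead, 20.3% were called higher and 10.5% lower where the mean level reached 1000 counts. The lists count genes with any called transcript, and a gene can have several, so these transcript shares are not a matching background for them.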

How the data were processed

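Poly(A) RNA of NIH/3T3 cells was sequenced as 2 KD and 2 WT stranded libraries. The authors quantified reads with Kallisto and fitted the libraries with Sleuth, and per the file headers the deposited transcript table holds the mean, the KD-minus-WT effect and its SE on the natural log scale. The same table, as deposited by the authors, adds variances on that squared scale and, for Sleuth's likelihood ratio test and Wald test, each p-value and q-value, and the gene table holds likelihood ratio p-values and q-values only. The submitters' processing notes also name bcl2fastq 2.17, HISAT2 and GRCm38. These are columns of the authors' own comparison, with no value of a single library, so calls here are the deposited ones and counting error per library is unknown.

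From these, effects and SEs were converted to log2, group levels were taken as the exponential of the mean plus or minus 0.5 times the effect, less a pseudocount of 0.5, and 95% intervals as the effect ± 1.96 SE. The 1.96 is the multiplier of a normal distribution and makes no allowance for the 2 degrees of freedom. Gene sums add tested protein-coding transcripts and combine their SEs as independent. The residual spread over 2 degrees of freedom was recovered from the variances and moderated with limma 3.58.1, after a test on simulated data. GENCODE M21 (GRCm38) matched 98.6% of transcripts and gave lengths, starts, introns and 31-base words, and 1 member transcript, of Rps14, was not matched. Motifs were searched in RefSeq promoters (GRCm38.p6).

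The members and all lists were chosen with earlier results of these data known. Named genes were the paralogs with their partners, the 10 called genes with the largest rise or fall, the 5 with the highest mean, genes with called or discordant transcripts, Setd2, Actb and called genes of the lists. Rpl11, Rpl4, Rpl23, Rpl9, Rps24 and the annotated copies were named after their values were seen. The values of 3 genes are not reported here one by one, though the counts include them. Alternatives were the Wald test, limma, a mean of at least 100 counts, centring on the median, on Actb or on GC content, gene q-values, 1 transcript a gene and, chosen after seeing the data, the addition of annotated copies.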

Additional observations from a re-analysis of the deposited data

How the results depend on the processing

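The median log2(fold change) of the members, 0.23, was 0.21 with 1 transcript a gene and 0.18 after centring on the median. Centring on GC content used 1 transcript a gene, so its 0.16 is read against that 0.21. The median was 0.21 with annotated copies added, an alternative chosen after seeing the data. Dividing by Actb reversed it from 0.23 to -0.22. The 27 transcripts called higher and 2 called lower became 46 and 5 with Sleuth's Wald q-values, 45 and 5 with a mean of at least 100 counts and 15 and 2 with limma. The scalings were tested with the Wald test, so they are read against its 46 and 5, which became 36 and 6 after centring on the median, 26 and 4 after centring on GC content and 4 and 33 when divided by Actb. The division by Actb also changed the split over all transcripts, where 5.47% of the Wald calls were then higher against 57.2% on the deposited scale. Gene q-values called 33 member genes against 27 with a called transcript. Of the 29 called transcripts, 12 lost the call with limma and 7 by the Wald test after centring on GC content, while all 29 kept it with the Wald q-values, with the filter and by the Wald test after centring on the median. Those lost after GC centring were of Rpl7a, Rpl8, Rpl19, Rpl38, Rpl41, Rplp2 and Rps2. The cause was not tested, beyond the shift that each scaling adds by construction.

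Divided by Actb, the called transcripts that turned to a lower value were those of Rpl22 (-0.062), Rps3 (-0.11), Rpl13a (-0.063), Rps9 (-0.044), Rps12 (main, -0.059), Rplp2 (-0.020), Rpl8 (-0.093), Rps2 (-0.064), Rpl19 (-0.077), Rps26 (-0.0063) and Rpl7a (-0.10). Among those not called, Rpl39l (-0.18), Rps27 (-0.17), Rps27l (-0.32), Rpl7 (-0.45), Rpl36al (-0.28), Rplp0 (-0.36), Rps6 (-0.27), Rplp1 (-0.10), Rps3a1 (-0.41) and Rpsa (-0.28) did so. Centring on the median turned Rpl7 (-0.040) and Rps3a1 (-0.0042).

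No paired analysis was possible because values of single libraries were not analysed here, and for the same reason leaving out each library was not run. Counting depth per library is unknown, and 2 libraries a group limit the precision of every interval.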
